A study of Homo sapiens with 12 samples.

Results

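MCF10A and MDA-MB-231 cells that had received control mimics only were compared on 4 of the 12 arrays of a study of 5’isomiR-140-3p and the canonical hsa-miR-140-3p in breast cells. The arrays are those labelled mimic-ctrl1 and mimic-ctrl2 in each cell line, with 1 array for each. MCF10A is an immortalized but non-transformed breast epithelial line, and MDA-MB-231 is a breast cancer line. The study describes both lines as lacking estrogen receptor, progesterone receptor and HER2. Both were transfected with 30 nM of a control mimic by lipofection, and RNA was taken after 48 h for Illumina HumanHT-12 v4 BeadChips, on which each gene is read by 1 or more bead-bound probes. MCF10A cells grew in DMEM F12 with horse serum, EGF, hydrocortisone, cholera toxin and insulin, and MDA-MB-231 cells in RPMI1640 with fetal bovine serum, so that effects of the line and of its medium cannot be told apart. Each line is a single cultured line, and the labels give 1 replicate of each control mimic. The p-values here measure only the spread between arrays of a group, pooled over all 12 arrays of the study. In the control groups that spread includes the difference between the control mimics.

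The breast gland is lined by inner luminal cells, marked by keratins such as KRT8, KRT18 and KRT19, and outer basal cells, which carry KRT5 and KRT14 and sit on the basement membrane. Epithelial cells hold together through E-cadherin, tight junctions and desmosomes. Cancer cells that have passed through an epithelial to mesenchymal transition (EMT) give up part of these contacts and use vimentin, other cadherins and matrix proteases instead.

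A level below is the log2 of an intensity after background correction and quantile normalization of all 12 arrays together, with values for mimic-ctrl1 and mimic-ctrl2 in that order. Levels of different probes are not comparable with each other. Background was the 0.99 quantile of the probes for olfactory receptor genes on an array, and on the level scale it averaged 5.61 on the MCF10A and 5.63 on the MDA-MB-231 control arrays. Between 13005 and 14848 probes per array lay above it, and 10491 genes were tested. Difference always means MDA-MB-231 minus MCF10A on the log2 scale, and a gene was called where it differed by at least 2-fold with an adjusted p under 0.05 (limma, Benjamini-Hochberg over all genes tested, 2 arrays against 2 with the spread pooled over the 6 groups of the study). Where both arrays of a line lay at background, the fold is given as a lower bound from the brighter line against the background level of the other.

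Of the 10491 genes, 1472 (14.0%) were higher and 1155 (11.0%) lower in MDA-MB-231 cells. Among them 504 and 347 differed by at least 4-fold, and 91 and 80 by at least 16-fold. The shares of 14.0% and 11.0% are the base against which every list count below is to be read. Both MDA-MB-231 arrays lay above both MCF10A arrays for 38.5% of genes and below both for 34.8%. Levels correlated across genes at 0.985 between the MCF10A arrays, at 0.981 between the MDA-MB-231 arrays and at 0.829 to 0.844 between lines, genes not being independent replicates. The standard error of a difference, given below after ±, had a median of 0.17. The control mimics of a line differed by at least 2-fold for 196 genes in MCF10A and 303 in MDA-MB-231, while the lines differed by at least 2-fold for 2891 genes with mimic-ctrl1 and 2688 with mimic-ctrl2. In 594 of the higher genes both MCF10A arrays lay at background, and in 400 of the lower genes both MDA-MB-231 arrays did. A gene was tested if a probe lay above background on at least 2 of the 12 arrays. Genes at background in 1 line can have passed through the other line alone, which then fixes their direction. Among the called genes named here, ADAM8, AP1M2, COL5A1, EHF, HMOX1, IFIT2, IFIT3, IFITM1, PSMB9, RIGI, SERPINB13 and SERPINB4 were above background on only 1 of the MCF10A arrays. CTSV, FOS, GBP3, JAG2, KCTD1, OAS3, S100A2 and SESN1 were above it on only 1 of the MDA-MB-231 arrays.

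**Figure D1:**
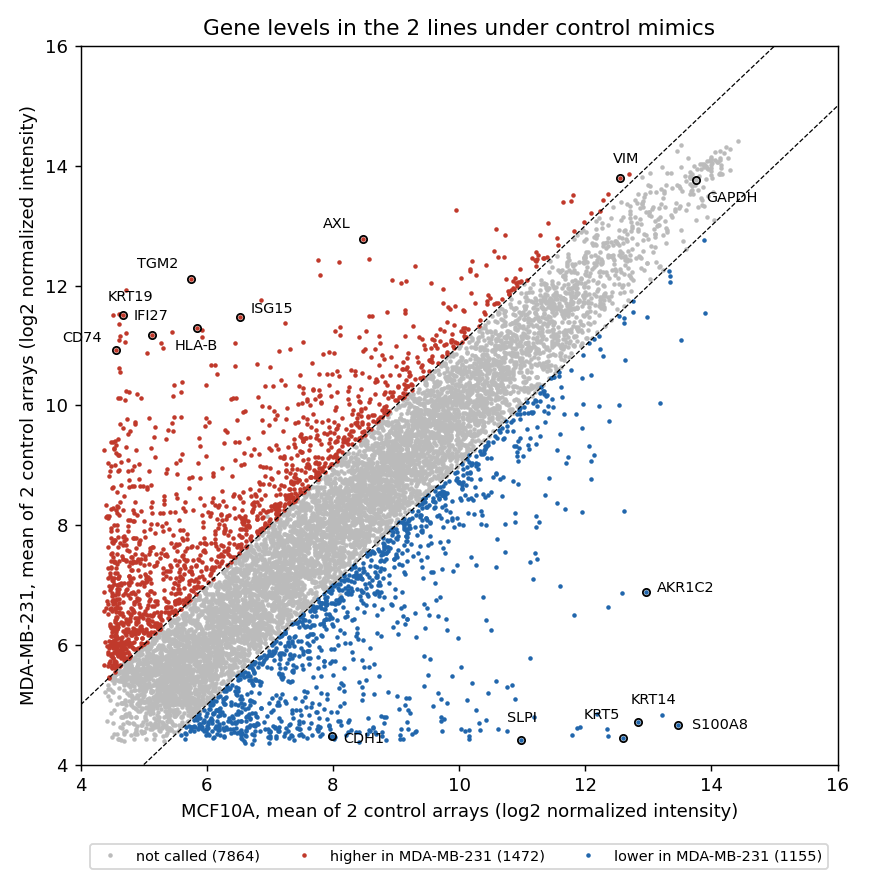
Mean level of 10491 genes on the 2 MCF10A control arrays (x axis, log2 normalized intensity) against the 2 MDA-MB-231 control arrays (y axis, same unit), with genes called higher in MDA-MB-231 in red, lower in blue and others in grey, and dashed lines at a 2-fold difference. KRT5, KRT14 and S100A8 lie at the lower right, at background in MDA-MB-231, and CD74, IFI27 and KRT19 at the upper left, at background in MCF10A.

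Reference genes gave a scale for these differences. GAPDH, a glycolytic enzyme, had levels of 13.71 and 13.80 in MCF10A against 13.85 and 13.67 in MDA-MB-231 (difference 0.01), and HPRT1, a purine salvage enzyme, differed by 0.14. Of 15 reference genes, 1 was higher, B2M, the light chain of HLA class I (1.14), and 1 was lower, RPL13A of the large ribosomal subunit (-1.196). The median difference was 0.14 for these and 0.04 for all genes.

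Defining markers of cell types were checked in both lines. Every basal marker measured, KRT5, KRT14, CDH3 and TRIM29, was above background in MCF10A and at background in MDA-MB-231. The probes for ESR1 and PGR, the hormone receptors, lay at background on all 12 arrays. ERBB2, which encodes HER2, had levels of 7.82 and 8.11 against 8.84 and 8.83 (difference 0.87 ± 0.14, adjusted p = 5.6e-04), under the 2-fold limit. Of 13 markers of blood, endothelium, fat, nerve and muscle with a probe, 3 were above background on any control array, namely CD14, PECAM1 and ADIPOQ, and PTPRC, VWF, DES and GFAP were not. CD14, a co-receptor for bacterial lipopolysaccharide, was lower in MDA-MB-231, with 11.08 and 10.11 against 7.58 and 7.04 (-3.28 ± 0.30, adjusted p = 9.1e-06). Outside these 13 markers, CD68 and MBP, from a wider list of such cell types, were higher in MDA-MB-231. CD68 had 8.38 and 8.44 against 11.03 and 11.24 (2.72 ± 0.12, adjusted p = 6.4e-08), and MBP differed by 1.48.

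Keratins of basal cells were among the genes that differed most. KRT5, the type II keratin of basal cells, had levels of 12.67 and 12.52 in MCF10A against 4.39 and 4.51 in MDA-MB-231, which is background, and was at least 126-fold lower (adjusted p = 1.1e-10). Its partner KRT14 stood at 13.05 and 12.62 against 4.74 and 4.69, at least 148-fold lower (adjusted p = 4.1e-10). KRT16, a keratin of wounded and hyperproliferative epidermis, had 11.19 and 10.34 against 4.67 and 4.44 (at least 35.3-fold lower), and KRT6C at least 107-fold lower (adjusted p = 1.1e-10). KRT6C is nearly identical to its neighbours in the keratin 6 family, and its probe may read them too. Of 12 keratins tested, 6 (50%) were lower and 3 (25%) higher. The higher ones were KRT8 (7.54 and 7.93 against 9.56 and 9.90, difference 1.999), KRT19 (4.74 and 4.59 against 11.42 and 11.59, at least 59.5-fold, adjusted p = 3.0e-10) and KRT80 (difference 4.58), all keratins of simple or differentiating epithelia. KRT7, also a keratin of simple epithelia, was lower, with 10.94 and 11.48 against 9.32 and 9.40 (-1.86 ± 0.18, adjusted p = 1.4e-05). KRT18, the partner of KRT8, had 7.70 and 7.91 against 7.73 and 7.44 and a difference of -0.22 (adjusted p = 0.22), but a second probe of KRT18 gave -1.12.

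Other basal genes followed the same direction. Of 14 basal and myoepithelial genes tested, 10 were lower and 2 higher, with a median difference of -2.88. SERPINB5, or maspin, a serpin of basal epithelium, stood at 11.79 and 11.95 against 4.62 and 4.60 and was at least 75.7-fold lower (adjusted p = 1.1e-10). CDH3, or P-cadherin, was at least 17.2-fold lower, and SFN, the epithelial 14-3-3 protein, differed by -2.84 (adjusted p = 1.9e-07). The smooth muscle actin ACTA2, a myoepithelial marker, had 9.65 and 9.27 against 6.64 and 5.92 (-3.18). MYLK, the kinase of myosin light chain, went the other way and was at least 3.43-fold higher, and OXTR, the oxytocin receptor, differed by 1.37. A second probe of MYLK differed by 0.86 and was not called. EGFR, also read as a basal marker, had 8.54 and 8.83 against 8.60 and 8.66 and a difference of -0.05, within the spread of the arrays. Its second probe differed by -0.78.

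Luminal markers were divided. Of 15 tested, 5 (33.3%) were higher and 4 (26.7%) lower. Beside KRT8 and KRT19, AGR2, a disulfide isomerase of secretory cells, was at least 6.02-fold higher and SPDEF, an ETS factor of the luminal lineage, at least 1.92-fold. A second probe of AGR2 differed by 0.21 and was not called. FOXA1, the pioneer factor of luminal cells, was at least 3.02-fold lower, and MUC1, an apical mucin, had 11.37 and 11.73 against 8.17 and 8.58 (-3.17 ± 0.19, adjusted p = 4.8e-07). CA12, a carbonic anhydrase, differed by -3.06. GATA3 was above background on both MCF10A arrays only, with 5.83 and 5.71 against 4.91 and 4.97, and its difference of -0.83 (adjusted p = 0.0012) stayed under the 2-fold limit.

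**Figure D2:**
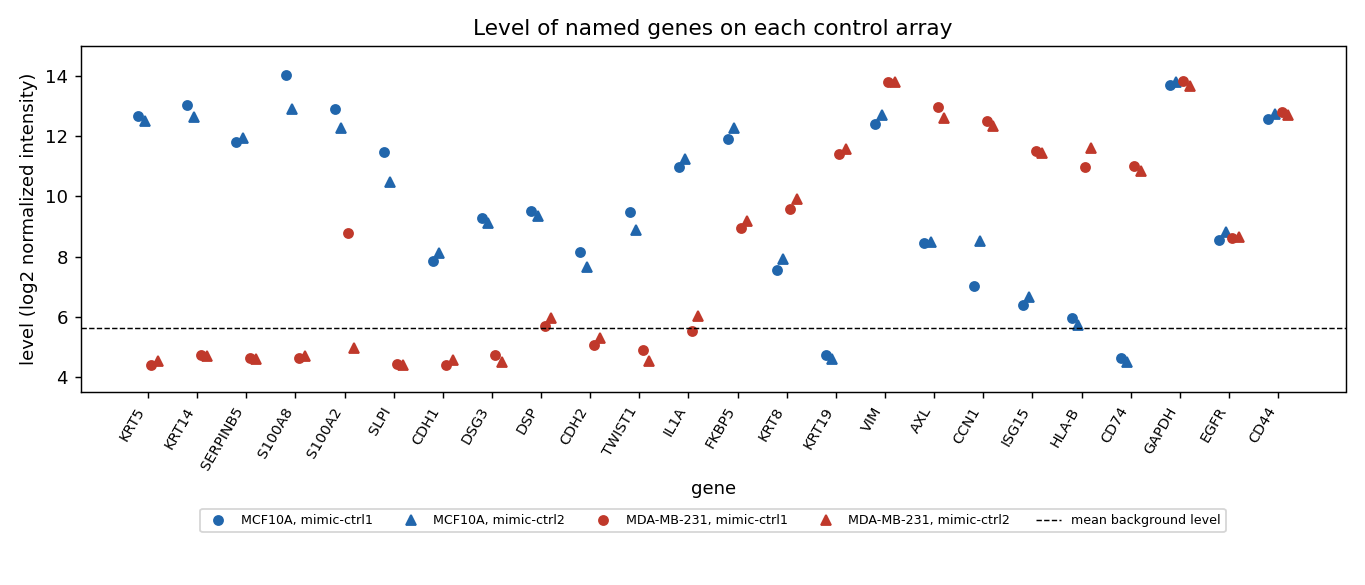
Level of 24 named genes (y axis, log2 normalized intensity) on each of the 4 control arrays, circles for mimic-ctrl1 and triangles for mimic-ctrl2, MCF10A in blue and MDA-MB-231 in red, with the mean background level as a dashed line. Points of the lines do not overlap for any gene but GAPDH, EGFR and CD44, and arrays of 1 line lie furthest apart for S100A2 in MDA-MB-231 and CCN1 in MCF10A.

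Genes of squamous differentiation were lower in MDA-MB-231 where called. Of 20 genes of the cornified envelope and its protease inhibitors, 13 were lower in MDA-MB-231 and 0 higher (limma, 3 higher at an unadjusted p under 0.05), with a median difference of -1.75. SLPI, an inhibitor of leukocyte elastase, had 11.49 and 10.48 against 4.44 and 4.40 and was at least 41.0-fold lower (adjusted p = 2.4e-08), and PI3, or elafin, with 11.51 and 10.03 against 4.92 and 5.67, at least 35.3-fold (adjusted p = 3.6e-06). Without 1 or the other MCF10A array the bound for PI3 was 21.1-fold or 58.9-fold. TGM1, which crosslinks the envelope, was at least 5.63-fold lower and CSTA, or cystatin A, at least 4.57-fold. The small proline-rich genes varied between the MCF10A arrays. SPRR2D had 8.13 and 6.51 against 4.66 and 4.71 (at least 3.23-fold lower, adjusted p = 9.8e-04, and 1.84-fold or 5.66-fold without 1 of the MCF10A arrays). SPRR1B, at 7.75 and 5.71 against 5.47 and 5.38, did not pass (adjusted p = 0.061).

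S100A8 and S100A9, the calprotectin subunits of neutrophils and inflamed epithelium, were the genes with the largest bounds of all. S100A8 had 14.02 and 12.91 against 4.62 and 4.69 and was at least 229-fold lower (adjusted p = 1.1e-08), and S100A9 at least 192-fold (adjusted p = 1.2e-08). Among 14 S100 genes 5 (35.7%) were lower and 1 (7.14%) higher. The one higher gene was S100A4, a calcium-binding protein associated with cell motility, at 10.47 and 9.44 against 13.53 and 13.00 (difference 3.31 ± 0.28, adjusted p = 5.9e-06). S100A2 stood at 12.91 and 12.27 in MCF10A and at 8.77 and 4.95 in MDA-MB-231, above background with mimic-ctrl1 only, so that the difference of -5.73 (adjusted p = 3.7e-04) rests on arrays that disagree within MDA-MB-231. S100A6 and S100A10 differed by 0.47 and 0.03 and were not called.

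Genes of cell contacts were lower at several layers. E-cadherin, CDH1, had levels of 7.86 and 8.11 in MCF10A against 4.41 and 4.55 in MDA-MB-231 and was at least 5.13-fold lower (adjusted p = 2.9e-08). Of 22 epithelial genes tested, 10 were lower and 2 higher, with a median of -0.88. OVOL2, a repressor of EMT factors, was at least 9.27-fold lower, and CLDN1, a tight junction claudin, had 10.46 and 10.31 against 6.86 and 6.75 (-3.58 ± 0.20, adjusted p = 2.5e-07). MAL2, a protein of apical transport, differed by -3.66. ST14, or matriptase, was at least 2.86-fold lower and PRSS8, or prostasin, at least 4.43-fold. EPCAM, an adhesion molecule of simple epithelia, had 9.04 and 9.22 against 7.95 and 8.24, a difference of -1.04 (adjusted p = 4.7e-04) just past the 2-fold limit. The probe for ESRP1, an epithelial splicing regulator, lay at background on all 12 arrays.

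The higher epithelial genes were AP1M2, an epithelial clathrin adaptor subunit (2.90 ± 0.25, adjusted p = 6.9e-06), and EHF, an epithelial ETS factor (1.31). CLDN7 had 7.33 and 6.61 against 7.81 and 8.10 (difference 0.98 ± 0.23, adjusted p = 0.0042) and CLDN4 4.85 and 5.84 against 5.54 and 5.36, both not called. SPINT2, a Kunitz inhibitor of matriptase, differed by 0.43.

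CRB3, the Crumbs protein that sets the apical side of the cell, was at least 5.06-fold lower (adjusted p = 3.1e-06), with 8.18 and 7.75 against 4.95 and 4.81. Its promoter is shown because the E-boxes CACCTG and CAGGTG, the same motif on opposite strands and the one bound by ZEB and Snail factors, occur there 5 times. Among the genes with a window CLDN7, not called, also holds 5 and AP1M2, which was higher, 3. RefSeq places this stretch at chr19:6464031-6464228 of GRCh38.p14, plus strand, upstream of the start of CRB3, with E-boxes in capitals.
CRB3: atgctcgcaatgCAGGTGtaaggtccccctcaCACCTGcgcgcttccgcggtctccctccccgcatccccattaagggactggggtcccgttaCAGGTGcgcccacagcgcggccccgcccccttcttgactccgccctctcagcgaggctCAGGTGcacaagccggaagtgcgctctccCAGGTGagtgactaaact
Windows from 250 bases before to 50 bases after a start were in the RefSeq table for 12 of the 22 genes, and 7 held an E-box, 2 of the 3 lower genes and 4 of the 7 not called. Over all genes of the table the share was 24.1%.

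Desmosomes, the rivets that tie keratin filaments of neighbouring cells together, were lower across their parts. Of 12 genes tested 8 were lower and 0 higher (limma, 0 at an unadjusted p under 0.05), with a median of -1.35. The cadherins DSG3 and DSC3 lay at background in MDA-MB-231 and were at least 11.8-fold and 9.04-fold lower (adjusted p = 1.4e-08 and 1.7e-06), whereas DSG2 and DSC2, found in simple epithelia too, differed by -1.15 and -1.34. DSP, or desmoplakin, which anchors the keratins, had 9.51 and 9.36 against 5.68 and 5.96 (-3.62 ± 0.18, adjusted p = 1.3e-07). JUP, or plakoglobin, differed by -1.35 and PKP2, a plakophilin, by -0.82, not called. In hemidesmosomes, which fix cells to the basement membrane, DST was at least 2.25-fold lower and ITGB4 had 8.88 and 8.97 against 8.38 and 7.46, a difference of -1.004 at the limit of a call (adjusted p = 0.0050). ITGA6, its partner chain, differed by -0.63 (adjusted p = 0.0041) and LAMB3 of laminin-332 by -0.90.

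Mesenchymal genes did not move as 1 group. Of 25 tested, 9 were higher and 7 lower, with a median of 0.37. VIM, or vimentin, was high in both lines, 12.41 and 12.71 in MCF10A against 13.79 and 13.80 in MDA-MB-231, with a difference of 1.24 (adjusted p = 2.0e-05). AXL, a receptor tyrosine kinase, had 8.46 and 8.49 against 12.98 and 12.59 (difference 4.31 ± 0.14, adjusted p = 6.3e-09). COL5A1, a fibrillar collagen chain, had 6.02 and 5.20 against 10.74 and 10.05 (4.79 ± 0.28, adjusted p = 3.6e-07). NRP1, a semaphorin and VEGF receptor, differed by 3.63, CDH11, or OB-cadherin, by 2.43 and MSN, or moesin, by 1.5.

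Classical EMT factors that were called were higher in MCF10A. TWIST1 had 9.48 and 8.88 against 4.89 and 4.52 and was at least 11.7-fold lower in MDA-MB-231 (adjusted p = 4.2e-08), and TWIST2 at least 4.48-fold. SNAI2, or Slug, was above background in both lines with 9.65 and 10.13 against 8.01 and 8.14 (-1.81 ± 0.16, adjusted p = 6.5e-06). N-cadherin, CDH2, was also lower in MDA-MB-231, with 8.16 and 7.64 against 5.06 and 5.31 (at least 4.85-fold, adjusted p = 5.0e-06). ZEB2 was at background on all 4 arrays, at 4.67 and 4.75 against 5.46 and 5.55, and the probes for ZEB1 and FN1, fibronectin, lay at background on all 12 arrays.

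Proteases of the matrix, the plasminogen system and their inhibitors were mostly higher. Of 27 tested, 14 were higher and 3 lower, with a median of 1.03. PLAU, the urokinase that activates plasminogen, had 9.17 and 9.42 against 12.64 and 12.02 (3.04 ± 0.18, adjusted p = 4.8e-07), and PLAT, the tissue activator, differed by 2.39. Sheddases of the ADAM family were among them, with ADAM8 at 5.71 and 4.52 against 8.97 and 8.38 (3.56 ± 0.33, adjusted p = 1.1e-05). MMP1, an interstitial collagenase, was at least 2.73-fold higher (adjusted p = 3.8e-06). The metalloprotease inhibitors TIMP2, TIMP3 and TIMP1 were higher, TIMP2 with 8.93 and 8.94 against 11.96 and 12.22 (3.16 ± 0.12, adjusted p = 2.1e-08), TIMP3 by 2.28 and TIMP1 by 1.16. SERPINE2, an inhibitor of plasminogen activators and thrombin, was lower, with 12.53 and 11.95 against 11.13 and 10.76 (-1.30 ± 0.19, adjusted p = 2.5e-04), as was the cathepsin CTSV (-2.13). MMP28, an epithelial metalloprotease, was at least 12.7-fold lower (adjusted p = 9.7e-08), but another of 3 MMP28 probes differed by -0.86 and was not called. Among 15 integrin chains, ITGA2, ITGA3 and ITGAE were higher (2.21, 1.13 and 1.10) and ITGB4 lower. These are 20% and 6.67% of the chains, against 14.0% and 11.0% of all genes. A second probe of ITGA3 differed by 0.45 and was not called. ITGB1, the common beta chain, differed by 0.88 (adjusted p = 8.3e-05), not called, and by 1.10 on a second probe.

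Targets of YAP and TAZ, the coactivators of the Hippo pathway that answer to cell density and tension, held some of the largest differences. CCN1, a matricellular protein, had 7.03 and 8.50 against 12.52 and 12.33 (4.65 ± 0.36, adjusted p = 2.8e-06), and CCN2, the connective tissue growth factor, 8.12 and 9.02 against 12.83 and 12.07 (3.88 ± 0.30, adjusted p = 3.2e-06). ANKRD1, a nuclear ankyrin repeat protein, was at least 16.1-fold higher (adjusted p = 3.4e-08) and IGFBP3 at least 14.5-fold. In all, 9 of 27 were higher and 2 lower, with a median of 0.61. YAP1 itself differed by -0.32 (adjusted p = 0.28), and TEAD4, a DNA-binding partner, was lower by a difference of -2.04. A second probe of TEAD4 differed by -0.78 and was not called. F3, tissue factor, differed by -0.02.

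Genes that report the output of the MAPK pathway were 10 higher and 2 lower out of 20, with a median of 1.004. DUSP5, a phosphatase of ERK, had 8.46 and 8.77 against 11.42 and 11.58 (2.88 ± 0.16, adjusted p = 2.7e-07), SPRY1, a feedback inhibitor of receptor signaling, differed by 2.31, and FOSL1, an AP-1 subunit, by 1.56. CCND1, or cyclin D1, differed by 1.24. DUSP6, another ERK phosphatase, had 9.77 and 9.67 against 10.28 and 9.91 (0.38) and was not called. DUSP1 and MYC were lower, with 12.35 and 12.39 against 9.70 and 9.78 (-2.63 ± 0.11, adjusted p = 3.4e-08) and 12.59 and 12.62 against 11.26 and 11.49 (-1.24). Of 9 EGF family genes, the ligands HBEGF (1.52) and NRG1 (1.38) and the receptor inhibitor ERRFI1 (2.49 ± 0.15, adjusted p = 5.5e-07) were higher and 0 were lower (limma, 1 at an unadjusted p under 0.05).

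TGF-beta and BMP genes were split between the lines. BMP4 was at least 6.38-fold higher (adjusted p = 1.1e-06) and TGFB2 at least 2.32-fold, and SMAD3, a signal transducer of the pathway, had 7.29 and 7.52 against 9.60 and 9.81 (2.30 ± 0.13, adjusted p = 3.7e-07). TGFBI, a matrix protein induced by TGF-beta, was lower, from 12.95 and 13.42 to 10.02 and 10.04 (-3.16 ± 0.16, adjusted p = 1.3e-07), as were the BMP targets ID1 (-1.94) and ID3 (-2.32). The counts were 6 higher and 4 lower of 20.

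Interferon-stimulated genes (ISGs), which cells switch on after interferon binds its receptor and the STAT and IRF9 complex enters the nucleus, were the list with the most calls. Of 36 tested, 23 were higher in MDA-MB-231 and 4 lower, with a median of 1.60. ISG15, a ubiquitin-like modifier, had 6.39 and 6.66 against 11.50 and 11.45 (4.95 ± 0.16, adjusted p = 6.3e-09), and HERC5, the ligase that attaches it, 6.11 and 6.02 against 10.54 and 10.79 (4.60 ± 0.15, adjusted p = 7.6e-09). IFI27 was at least 47.6-fold higher (adjusted p = 1.1e-08) and IFIT1, which binds foreign RNA caps, at least 23.97-fold (adjusted p = 1.5e-08). IFIT2 differed by 4.62 and IFIT3 by 4.34. BST2, or tetherin, was at least 15.5-fold higher, OAS2 at least 10.4-fold and MX1 at least 4.16-fold. IRF9 itself had 7.21 and 7.65 against 9.01 and 8.87 (1.51 ± 0.20, adjusted p = 1.3e-04).

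Not all ISGs were higher. OAS1 (at least 1.77-fold, adjusted p = 0.0037), OAS3 (-1.18), PLSCR1 (-1.29) and IFITM2 (-1.12) were lower, and IFIH1, the RNA sensor MDA5, had 6.73 and 7.11 against 6.81 and 7.53 (0.25 ± 0.25, adjusted p = 0.41). IFITM1 differed by 2.58 and IFITM3 by -0.74, and these near-identical genes may share signal on their probes. Without background correction OAS1, OAS3 and PLSCR1 stayed under the 2-fold limit (-0.53, -0.59 and -0.71). Another of 3 OAS1 probes differed by -0.11. IFI44 was at least 14.3-fold higher, while its paralog IFI44L differed by -0.07.

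Promoters of ISGs with large differences are shown, as the part of these genes that interferon signaling acts on, with the core of the interferon-stimulated response element in capitals, together with OAS3, which was lower. The motif searched was GAAANNGAAA on either strand, which reads TTTCNNTTTC on the other, and matches may overlap. Each stretch lies upstream of the start, in GRCh38.p14 of RefSeq, at chr1:1013372-1013411 on the plus strand for ISG15, chr10:89392495-89392541 on the plus strand for IFIT1, chr10:89327829-89327896 on the plus strand for IFIT3, chr14:94110616-94110662 on the plus strand for IFI27, chr4:88456982-88457066 on the plus strand for HERC5, chr19:17405733-17405772 on the minus strand for BST2 and chr12:112938319-112938473 on the plus strand for OAS3.
ISG15: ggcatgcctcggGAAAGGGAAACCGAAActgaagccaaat
IFIT1: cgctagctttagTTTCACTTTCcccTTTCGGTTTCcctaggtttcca
IFIT3: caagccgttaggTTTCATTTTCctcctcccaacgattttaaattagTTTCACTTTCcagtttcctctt
IFI27: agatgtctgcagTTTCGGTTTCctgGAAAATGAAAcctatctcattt
HERC5: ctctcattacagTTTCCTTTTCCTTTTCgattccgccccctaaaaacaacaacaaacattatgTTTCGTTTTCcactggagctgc
BST2: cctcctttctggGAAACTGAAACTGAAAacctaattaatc
OAS3: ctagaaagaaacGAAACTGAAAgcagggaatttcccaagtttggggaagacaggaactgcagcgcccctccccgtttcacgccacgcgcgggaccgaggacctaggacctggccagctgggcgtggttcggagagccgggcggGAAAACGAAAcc
The RefSeq table held windows for 30 of the 36 ISGs tested, and 22 held the motif. These were 13 of 18 higher genes, 2 of 3 lower genes and 7 of 9 not called, against 4.38% of all genes of the table. In ISG15, BST2 and HERC5 matches overlap, and in IFIT1, IFIT3 and IFI27 they stand apart. RIGI, HERC6, IRF9, IFI35 and SAMD9L were higher with no match in the window.

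Genes of antigen presentation were higher in MDA-MB-231 with no exception among those called. Of 19 tested, 13 were higher and 0 lower (limma, 0 at an unadjusted p under 0.05), with a median of 1.48. The 13 include class II genes, given below, that lay at background in MCF10A. HLA-B had 5.95 and 5.73 against 10.97 and 11.60 (5.45 ± 0.21, adjusted p = 2.4e-08) and HLA-F 6.32 and 6.59 against 10.32 and 10.99 (4.20), whereas HLA-C differed by 0.05. A second probe of HLA-F differed by 0.82 and was not called. Class I genes are polymorphic and alike, so that their probes may read some alleles better than others. The immunoproteasome subunit PSMB9 differed by 3.51 (adjusted p = 8.7e-07) and PSMB8 by 1.48, while the peptide transporter TAP1 had 10.44 and 10.72 against 10.86 and 11.29 (0.50 ± 0.16, adjusted p = 0.023) and was not called.

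HLA class II is usually found on professional antigen-presenting cells. Its tested genes were higher, but CD74, HLA-DMA, HLA-DMB and HLA-DPA1 lay at background on both MCF10A control arrays. They can have passed the filter on background through MDA-MB-231 alone, so their shared direction is no separate support. The probes for the beta chains HLA-DRB1, HLA-DPB1 and HLA-DQB1 did not pass this filter and were not tested. CD74, the invariant chain that guards the class II groove, was at background in MCF10A with 4.61 and 4.51 and had 11.01 and 10.85 in MDA-MB-231 (at least 40.0-fold higher, adjusted p = 1.5e-09). HLA-DMA was at least 22.8-fold higher, HLA-DMB at least 10.6-fold and HLA-DPA1 at least 13.7-fold. HLA-DRA was above background in MCF10A too, with 7.01 and 7.10 against 10.19 and 10.46 (3.27 ± 0.13, adjusted p = 2.8e-08). The probe for CIITA, the class II coactivator, lay at background on all 12 arrays.

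Cytokine and chemokine genes were divided. Of 24 cytokine, chemokine and receptor genes, 9 were lower and 5 higher, with a median of -0.16. IL1A had 10.99 and 11.26 against 5.54 and 6.02 (-5.34 ± 0.19, adjusted p = 1.4e-08), and CCL20, which attracts CCR6-bearing lymphocytes, 10.47 and 10.38 against 6.49 and 6.35 (-4.005 ± 0.13, adjusted p = 6.3e-09). The neutrophil chemokines CXCL1 and CXCL2 differed by -2.87 and -1.87, and CSF3, a growth factor for granulocytes, was at least 4.86-fold lower. IL6 had 9.03 and 8.80 against 9.36 and 9.17 (0.34 ± 0.15, adjusted p = 0.082) and CXCL8 10.89 and 10.72 against 11.52 and 10.94 (0.42), both not called. IL6ST, a receptor chain of IL6, was higher by 1.91, LIF was at least 1.57-fold higher and TNFSF10, the death ligand TRAIL, at least 2.18-fold (1.46-fold or 3.27-fold without 1 of the MDA-MB-231 arrays). The acute-phase gene SAA1 had 11.84 and 11.82 against 6.27 and 6.73 (-5.33 ± 0.16, adjusted p = 3.8e-09), and it is nearly identical to SAA2, which was at least 3.98-fold lower.

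Targets of the p53 tumor suppressor were lower more often than higher. Of 30 tested, 13 were lower and 2 higher, with a median of -0.72. CDKN1A, the cyclin-dependent kinase inhibitor p21, had 12.25 and 12.31 against 11.01 and 10.65 (-1.45 ± 0.15, adjusted p = 2.1e-05), PHLDA3, an inhibitor of AKT, 9.43 and 8.79 against 6.74 and 6.23 (-2.62), and SESN1, a sestrin, differed by -1.97. FAS, the death receptor, was at least 1.46-fold lower and CYFIP2 at least 3.74-fold. BAX, the apoptosis effector, differed by 0.01 and BBC3, or PUMA, by -0.28. GDF15 (1.43) and PLK2 (1.63) were higher. The probes for CDKN2A and its neighbour MTAP lay at background on all 12 arrays.

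Called replication genes were all lower under control mimics, and few mitotic genes were called. Of 35 genes of G1/S and replication, 11 were lower and 0 higher (limma, 2 at an unadjusted p under 0.05), with a median of -0.66. Only 2 of these 11 kept a lower call under the canonical mimic and under the 5’isomiR alike, against 65.3% of all lower genes. Most calls of this list thus did not recur on the arrays of the other mimics. CDT1, a licensing factor, had 9.94 and 9.55 against 8.08 and 7.87 (-1.77 ± 0.15, adjusted p = 6.9e-06), CCNE1, or cyclin E1, differed by -1.58, and MCM6 of the replicative helicase by -1.08. Of 39 G2/M genes, 3 (7.69%) were lower and 1 (2.56%) was higher, with a median of -0.23. These shares lay below the 11.0% and 14.0% of all genes. Of the 3, only 1 was also called lower with both mimics. The lower ones were HMMR, a hyaluronan receptor of the spindle (10.17 and 10.38 against 7.32 and 7.35, -2.94 ± 0.13, adjusted p = 6.8e-08), PLK1 (-1.53) and CENPA (-1.28), and CENPF was higher by 1.09. CDK1 differed by -0.23 and FOXM1 by -0.03. CCND2, or cyclin D2, had 10.55 and 10.46 against 8.71 and 8.38 (-1.96 ± 0.14, adjusted p = 1.2e-06).

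Genes known to be induced by glucocorticoids were lower more often than higher in MDA-MB-231, whose medium held no added hydrocortisone. Of 20 tested, 11 were lower and 2 higher, with a median of -1.62. FKBP5, a co-chaperone of the glucocorticoid receptor, had 11.89 and 12.29 against 8.95 and 9.19 (-3.02 ± 0.17, adjusted p = 2.7e-07), and SCNN1A, the alpha subunit of the epithelial sodium channel, 11.49 and 11.70 against 7.12 and 6.85 (-4.61 ± 0.16, adjusted p = 1.2e-08). TSC22D3, or GILZ, differed by -1.87, KLF9 by -1.62 and CEBPD by -2.60. ZBTB16 was at least 4.95-fold lower and TFCP2L1 at least 4.47-fold. Of 3 probes each, 1 of TSC22D3 differed by -0.28 and 1 of ZBTB16 by -0.15. SGK1, a kinase of the same response, had 10.31 and 10.26 against 9.82 and 10.18 (-0.29 ± 0.15, adjusted p = 0.12), and CRISPLD2 was at least 4.36-fold higher. Cholera toxin, another supplement of the MCF10A medium, raises cyclic AMP. Of 10 genes induced by cyclic AMP, 4 (40%) were lower and 2 (20%) higher. Among them were RGS2 (-2.02), FOS (-2.87) and PPARGC1A (at least 2.50-fold higher). The part of the medium in these differences was not tested.

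Enzymes of cholesterol synthesis were lower where called, apart from TM7SF2. SQLE, the squalene epoxidase, had 11.79 and 12.10 against 8.11 and 8.32 (-3.73 ± 0.13, adjusted p = 1.4e-08). HMGCS1 differed by -1.67, FDPS by -1.48 and DHCR7 by -1.39. Of 26 sterol and fatty acid genes, 7 (26.9%) were lower and 1 (3.85%) higher. FASN, the fatty acid synthase, differed by -0.65 and SCD, a desaturase, by -0.51, both not called. Of 19 genes of serine, glycine and amino acid supply, 4 (21.1%) were lower and 1 (5.26%) higher. The serine enzyme PHGDH was lower (9.92 and 9.35 against 7.70 and 5.82, -2.88 ± 0.46, adjusted p = 4.5e-04), with MDA-MB-231 arrays that differed from each other, and so was mitochondrial MTHFD2 (-1.98).

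Called genes of glucose transport and hypoxia were higher, apart from ALDOC. SLC2A3, the glucose transporter GLUT3, had 7.98 and 8.09 against 11.28 and 11.18 (3.20 ± 0.13, adjusted p = 3.7e-08), SLC2A1, or GLUT1, differed by 1.29, and ENO2, the neuronal enolase, was at least 8.08-fold higher (adjusted p = 1.2e-08). BNIP3, a mitophagy receptor, differed by 2.11 and VEGFA by 1.58. On the probes used, the core enzymes were close, with LDHA at -0.30, PGK1 at 0.20 and ENO1 at 0.02. Another of 3 LDHA probes differed by -1.18. Of 29 genes, 8 were higher and 1 lower, namely ALDOC (-1.45).

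In detoxification, AKR1C2, a steroid-reducing aldo-keto reductase, had 13.33 and 12.60 against 6.91 and 6.86 and a difference of -6.08 (adjusted p = 2.4e-08), while its near-identical neighbour AKR1C3 differed by -0.63. NQO1, the standard target of NRF2, had 11.20 and 11.55 against 11.97 and 11.94 (0.58 ± 0.14, adjusted p = 0.0053), not called, and HMOX1, heme oxygenase, differed by 2.30. Of 24 NRF2 targets and aldo-keto reductases, 4 (16.7%) were higher and 2 (8.33%) lower, near the 14.0% and 11.0% of all genes. GSTP1, the pi class glutathione transferase, was lower (14.01 and 13.79 against 11.57 and 11.50, -2.36 ± 0.12, adjusted p = 1.4e-07). The mu class was higher, with GSTM2 at least 16.9-fold, GSTM3 at least 2.85-fold and GSTM1 by 3.34, and these copies may share signal. Glutathione and aldehyde genes together gave 7 (26.9%) higher and 3 (11.5%) lower of 26. ALDH2, the mitochondrial aldehyde dehydrogenase, was at least 10.8-fold higher (adjusted p = 1.5e-08), and ALDH1A3 had 7.25 and 8.48 against 6.54 and 8.14, with groups that overlap.

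Surface markers used to sort breast cells gave a mixed picture. CD44 had 12.59 and 12.72 against 12.80 and 12.69 (0.09 ± 0.13, adjusted p = 0.58). CD24 had 8.97 and 7.94 against 7.79 and 6.41 and differed by -1.36 (adjusted p = 0.018), its values spread over more than a 2-fold range within each line, and it differed by 0.58 with the canonical mimic and by 0.51 with 5’isomiR-140-3p. ENG, or endoglin, was at least 3.61-fold lower, MME, or CD10, at least 2.61-fold, and NT5E, or CD73, was higher by 1.48.

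Wnt and Notch genes included SFRP1, a secreted Wnt inhibitor often silenced in breast cancer, at 11.81 and 12.02 against 4.52 and 4.74 and at least 78.2-fold lower (adjusted p = 3.1e-10). Another Wnt inhibitor, DKK1, was higher (10.004 and 10.54 against 12.08 and 12.29, 1.91 ± 0.17, adjusted p = 8.6e-06), AXIN2, a feedback target, was at least 3.28-fold higher, and the ligands WNT7B and WNT5B were at least 4.17-fold and 3.76-fold higher. Of 25 tested, 9 (36%) were higher and 3 (12%) lower, and the lower ones also held the Notch ligands JAG2 (-3.26) and DLL1 (at least 2.26-fold).

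Genes that the study followed as targets of the 5’isomiR differed between the control-transfected lines to unequal extents. MARCKSL1, a MARCKS-related regulator of the actin skeleton, had 7.26 and 7.64 in MCF10A against 9.71 and 10.33 in MDA-MB-231 (2.57 ± 0.22, adjusted p = 5.8e-06). COL4A1, a chain of basement membrane collagen, had 9.72 and 10.21 against 9.25 and 8.96 (-0.86 ± 0.17, adjusted p = 0.0017), and ITGA6, given above, 8.76 and 8.72 against 8.12 and 8.10.

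**Figure D3:**
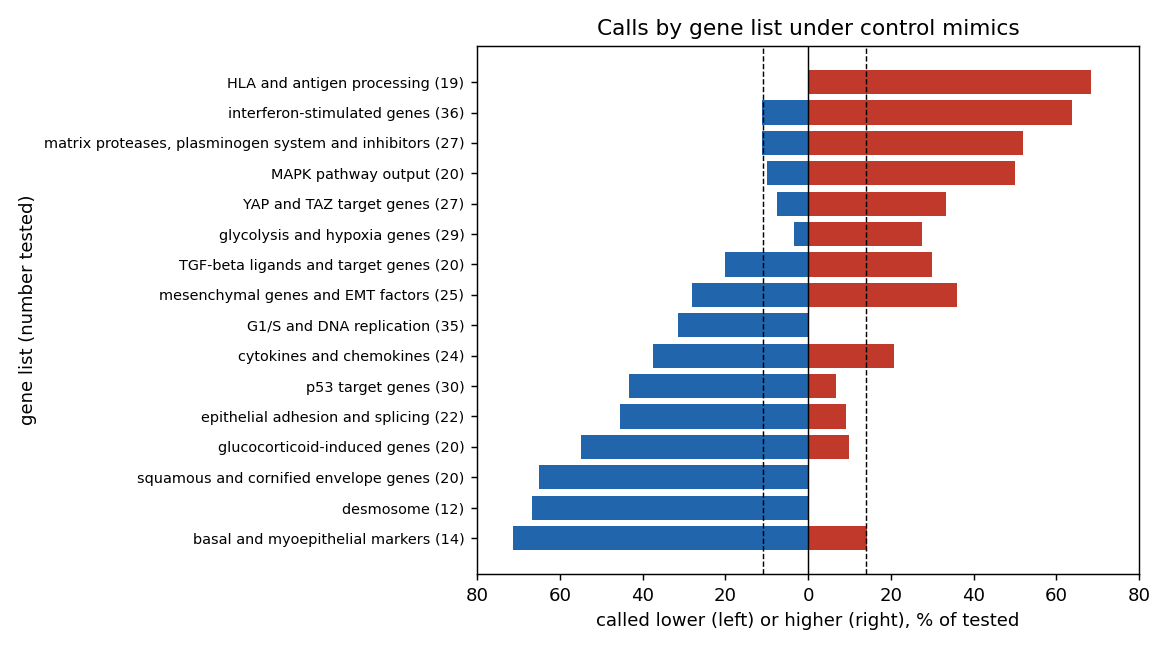
Share of the tested members of 16 gene lists (x axis, percent) called higher (red, to the right) or lower (blue, to the left) in MDA-MB-231, with the number tested after each name and dashed lines at the share of all 10491 genes, 14.0% higher and 11.0% lower. HLA and interferon genes reach furthest to the right, and basal, desmosome and squamous genes furthest to the left.

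The largest difference of all among genes above background on all 4 arrays was that of TGM2, or transglutaminase 2, which crosslinks proteins of the matrix, with 5.84 and 5.67 against 12.41 and 11.82 (6.36 ± 0.18, adjusted p = 2.9e-09). Its MCF10A levels lay just over the mean background level of 5.61. The 3 probes of TGM2, all called higher, ranged from 1.49 to 6.36. ADGRG1, an adhesion receptor also called GPR56, had 6.14 and 5.85 against 11.07 and 9.61 (4.35 ± 0.37, adjusted p = 6.2e-06). IGFBP4, which binds insulin-like growth factors, was at least 79.9-fold higher (adjusted p = 1.5e-09), ADGRF5 at least 60.4-fold, CYBA, the p22 subunit of NADPH oxidase, at least 59.5-fold and CALB2, or calretinin, at least 53.6-fold. A second probe of CALB2 gave a difference of -0.45. SPANXB1 and SPANXA2, sperm proteins of the cancer-testis class with near-identical copies, differed by 5.34 and 5.22, while the probe of SPANXA1 differed by 0.51.

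On the other side stood NNMT, the nicotinamide N-methyltransferase, with 12.58 and 12.15 against 7.21 and 6.04 (-5.74 ± 0.33, adjusted p = 3.3e-07), KYNU, an enzyme of tryptophan breakdown (-4.37), ASS1, the argininosuccinate synthase (-3.79), and EFNA1, an ephrin ligand (-4.26). Another of 3 ASS1 probes differed by -0.97 and was not called. DCN, or decorin, a small proteoglycan of the matrix, was at background in MDA-MB-231 and at least 71.4-fold lower (adjusted p = 6.5e-10), FGFBP1, a carrier of fibroblast growth factors, at least 106-fold, and LAD1, or ladinin, an anchoring filament protein, at least 94.2-fold.

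Some calls close to the limit rested on 1 array. Without the mimic-ctrl1 array of MCF10A, CD24 (-0.84), OAS1 (-0.73), CENPF (0.93), TATDN1 (-0.95), SERPINB13 (-0.97) and SERPINB4 (-0.40) were no longer called, and without its mimic-ctrl2 array ITGB4 (-0.96), EPCAM (-0.94), DSG2 (-0.91) and TIMP1 (0.97). Leaving out mimic-ctrl1 of MDA-MB-231 ended the calls of OAS3 (-0.77), EPCAM (-0.89), TATDN1 (-0.78), DSG2 (-0.75), ITGA3 (0.93) and BTN2A1 (0.77). Without its mimic-ctrl2 those of EHF (0.93), ITGB4 (-0.55), CD24 (-0.67), CENPA (-0.98), B2M (0.86), TCEAL4 (0.96), SERPINB13 (-1.005, adjusted p = 0.071) and SERPINB4 (-1.01, adjusted p = 0.087) did. In the other direction, COL4A1 was called without mimic-ctrl1 of either line (-1.10 and -1.01), and so was CLDN7 (1.34 and 1.13). PKP2 was called without mimic-ctrl1 of MCF10A or mimic-ctrl2 of MDA-MB-231 (-1.002 and -1.01), ERBB2 (1.02), SPANXA1 (1.05) and SPRR1B (-2.33) without mimic-ctrl2 of MCF10A, and ALDH1A3 (-1.32) without mimic-ctrl2 of MDA-MB-231. The remaining array of such a line was assumed to vary like the other groups. Among the list counts, YAP and TAZ targets went from 9 to 14 higher without mimic-ctrl2 of MCF10A, and G2/M genes from 3 to 6 lower and epithelial genes from 2 to 4 higher without the MDA-MB-231 array of mimic-ctrl1. Glutathione and aldehyde genes went from 3 to 5 lower without mimic-ctrl2 of MDA-MB-231, and every other list count above moved by at most 1 gene where it changed by more than 1.5 times.

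The 8 arrays with 5’isomiR-140-3p or with the canonical hsa-miR-140-3p gave the same comparison of lines on separate arrays. All 12 arrays were normalized and filtered together and shared an estimate of the spread of each gene, so that the comparisons are not independent. With hsa-miR-140-3p 1459 genes were higher and 1130 lower in MDA-MB-231, and with 5’isomiR-140-3p 1468 and 1206. Of the 1472 genes higher under control mimics, 1011 (68.7%) were called higher under both mimics as well and 1450 had the same sign, and of the 1155 lower genes 754 (65.3%) and 1140. The difference between lines changed by at least 2-fold with an adjusted p under 0.05 for 0 genes with hsa-miR-140-3p and 411 with 5’isomiR-140-3p (interaction contrasts of limma), of which 227 were called under control mimics. KRT5 differed by -7.56 and -7.99 under the mimics, CD74 by 6.10 and 5.48, and ADGRG1 by 4.42 and 0.32. Of the 10491 genes 833 had an unadjusted p under 0.05 for the change with hsa-miR-140-3p.

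**Figure D4:**
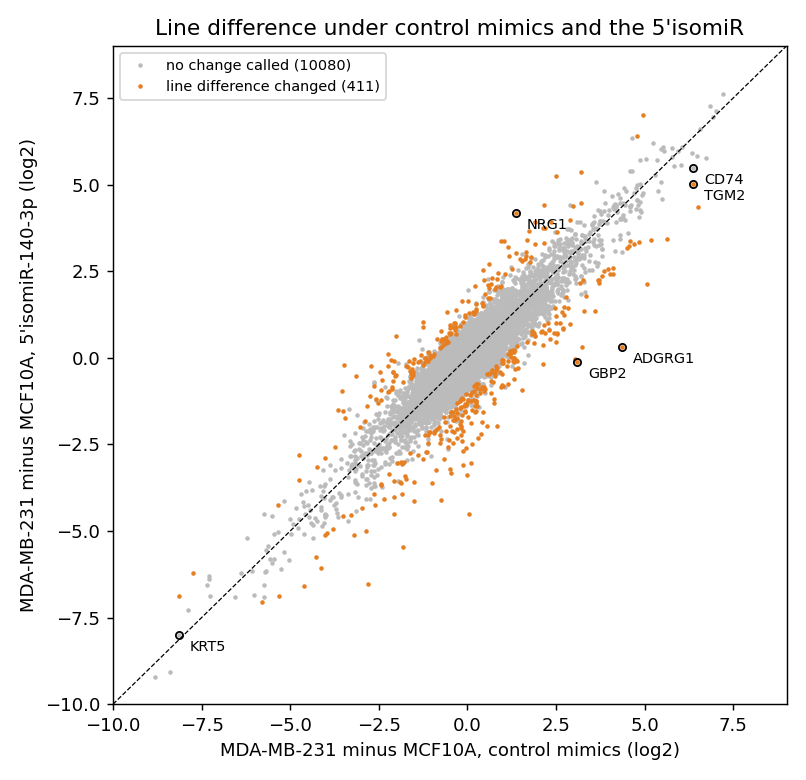
Difference between lines (MDA-MB-231 minus MCF10A, log2) under control mimics (x axis) against that under 5’isomiR-140-3p (y axis) for 10491 genes, with the 411 genes whose difference changed between both conditions in orange. Most genes lie along the diagonal, and ADGRG1 and GBP2 lie far below it.

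Called genes sat next to each other on the chromosomes in several places, among them members of the lists. In the order of the RefSeq gene table, 29 runs of at least 4 neighbouring tested genes were called in 1 direction, 17 higher and 12 lower. Desmosomal cadherins formed one of them on chromosome 18, where KCTD1, CDH2, DSC3, DSC2, DSG3 and DSG2 were all lower, and SERPINB5, SERPINB13, SERPINB4 and SERPINB3 formed another. On chromosome 1, SPRR2D, SPRR2F, S100A9 and S100A8 were lower and the guanylate-binding proteins GBP3, GBP1, GBP2 and GBP4, which are induced by interferon gamma, were higher, GBP2 with 6.50 and 6.03 against 9.39 and 9.34 (3.10 ± 0.16, adjusted p = 2.0e-07). On chromosome 6 the butyrophilins BTN3A2, BTN3A1, BTN3A3 and BTN2A1 were higher together, and so were HLA-F, HCG4, HLA-G and HLA-H, of which HCG4 and HLA-H are pseudogenes. The longest run lay on chromosome 8, with SQLE among TYW2, TATDN1, NDUFB9, MTSS1, WASHC5 and NSMCE2, all lower, with differences of -3.73 for SQLE, -2.79 for MTSS1 and -1.02 for TATDN1. Without background correction GBP3, GBP4 and the 4 butyrophilins stayed under the 2-fold limit, between 0.44 for GBP3 and 0.74 for BTN3A1. Related genes of these runs can share sequence. The chromosome X held ARMCX1, ARMCX6, ARMCX3 and ARMCX2 in 1 run, ARMCX1 at least 13.8-fold higher (adjusted p = 3.5e-09), and BEX2, TCEAL9, BEX3, TCEAL4, TCEAL3 and TCEAL1 in another, with BEX2 at least 4.55-fold higher.

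Whole chromosomes differed in the share of calls. On chromosome X 27.2% of 353 genes were higher and 8.5% lower, on chromosome 6 22.8% of 562 were higher and on chromosome 10 22.6% of 425, against 14.0% of all genes. On chromosome 13 25.5% of 184 genes were lower and 7.61% higher, on chromosome 8 23.5% of 387 were lower and on chromosome 18 19.9% of 146, against 11.0% of all. Median differences ran from -0.61 on chromosome 13 to 0.42 on chromosome X. With hsa-miR-140-3p 24.9% of the genes on chromosome X were higher and 27.2% of those on chromosome 13 lower, and with 5’isomiR-140-3p 30% and 23.4%, on arrays other than the controls. The shares by chromosome were counted after the values had been seen and are a description.

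**Figure D5:**
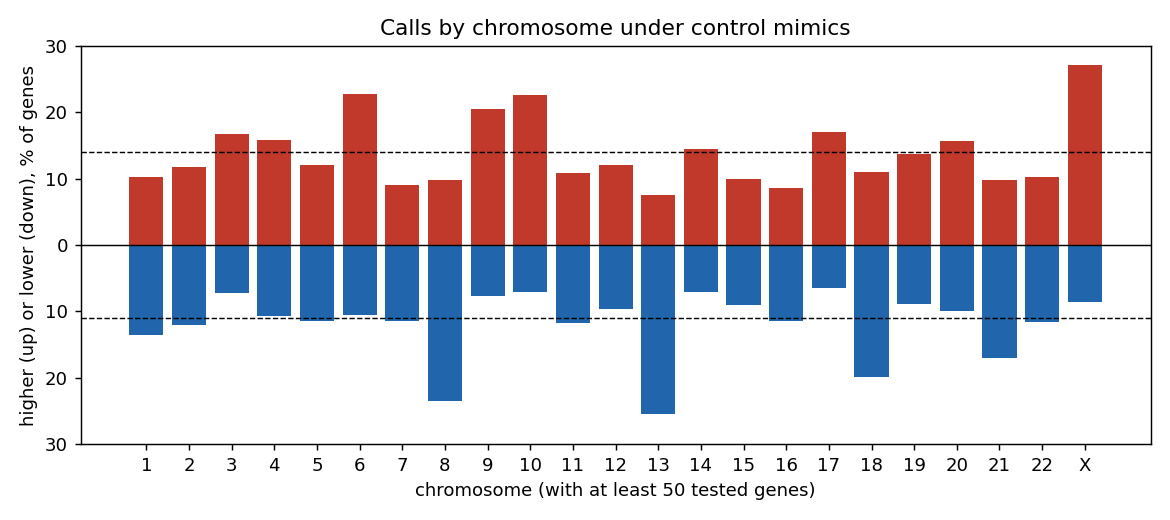
Share of tested genes on each chromosome (x axis) called higher (red, upward) or lower (blue, downward) in MDA-MB-231 (y axis, percent), with dashed lines at 14.0% and 11.0%, the shares over all genes. Chromosomes X, 6 and 10 stand out upward and chromosomes 13, 8 and 18 downward.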

How the data were processed

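Total RNA of 12 cultures was hybridized to Illumina HumanHT-12 v4 BeadChips, and the deposited values were linear intensities of 47323 probes that the authors had normalized within each cell line. The method of that normalization is not given in the sources used here. A table of non-normalized intensities held 24 value columns whose headings name no sample of the study and was not used. Probe genes came from the platform annotation, updated to current RefSeq symbols by gene ID, and 30111 probes had 1 gene, 8 several and 17200 none. Promoter windows were those of RefSeq on GRCh38.p14, matched by gene symbol.

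All 12 arrays were processed together in R 4.3.3 with limma 3.58.1. Probes with missing values (4) were left out. Background was corrected by the normal-exponential model of neqc (offset 16), with 457 olfactory receptor probes in place of negative controls, followed by quantile normalization and log2. Probes above the 0.99 quantile of the olfactory receptor probes on at least 2 arrays were kept, olfactory receptor genes were not tested (decided after their number was seen), and the brightest probe stood for its gene. Group means of 6 groups were fitted with lmFit and eBayes (6 residual degrees of freedom), and the contrast was tested with Benjamini-Hochberg adjustment. The number of arrays, 2 in each line, limits the precision. The fit was checked on simulated data with known differences.

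Genes named in the text were picked from the groups that follow, and many members of these groups are not named. The first group was the 12 with the largest difference in each direction among those above background on all 4 arrays. Others were the 12 with the largest lower bound, and up to 5 called members of each of 34 gene lists in each direction. The remaining groups were defining members of a list, genes of runs of at least 4 neighbours, and list members whose difference between lines changed under a mimic. A further 63 of the 280 were list members added after their values were seen. KRT7, CD68 and MBP are not among the 280, and the counts and checks of named genes below do not cover them. The comparison and the lists were chosen with earlier results of these data known. Alternatives covered background, normalization, filter, probe rule, arrays in the fit, test, thresholds and each array left out.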

Additional observations from a re-analysis of the deposited data

Results flagged for a closer look

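For 39 of the 280 genes named above, the difference between lines under 5’isomiR-140-3p itself differed from that under control mimics by at least 2-fold (interaction contrast of limma, adjusted p at most 0.048, 2 arrays in each of 4 groups). Such a change was one of the reasons for naming a gene, and over all genes tested 411 of 10491 (3.92%) met the same limit. The values below are that change on the log2 scale, the difference under the 5’isomiR minus the difference under control mimics. No named gene met the same limit with hsa-miR-140-3p.

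Among genes higher in MDA-MB-231, the change was -4.03 for the adhesion receptor ADGRG1 and -3.21 for the guanylate-binding protein GBP2, which left the lines at 0.32 and -0.12. GSTM2 changed by -2.94, HLA-DMA by -1.78, HLA-DMB by -1.67, GSTM1 by -1.56, BST2 by -1.52, EHF by -1.43, TGM2 by -1.35, ERRFI1 by -1.29, KRT80 by -1.21 and HLA-DRA by -1.01, all toward a smaller difference. The difference was larger for NRG1, with a change of 2.80, the glucose transporter SLC2A3 at 2.16, ISG15 at 2.06, DKK1 at 2.0, COL5A1 at 1.62 and NT5E at 1.36.

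Among genes lower in MDA-MB-231, RGS2 changed by 2.64, CSF3 by 2.61, SERPINB3 by 2.58, TGM1 by 1.73, FGFBP1 by 1.55, SERPINE2 by 1.38, CTSV by 1.28, KRT14 by 1.26, DST by 1.21, CCNE1 by 1.10 and IL1A by 1.08, toward a smaller difference. A larger difference was found for the acute-phase genes SAA2 (-3.73) and SAA1 (-1.54), which are nearly identical, and for TSC22D3 (-1.74), ST14 (-1.72), ZBTB16 (-1.24), ASS1 (-1.15), CXCL2 (-1.14) and CDH1 (-1.07). CLDN7 and COL4A1, not called under control mimics, changed by -1.77 and 1.42.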

How the results depend on the processing

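No called gene among the 280 reversed under any of 30 alternatives, and 54 of the 236 called genes kept their call under all of them, the adjusted t-test and the 4-fold limit included. The counts of 1472 higher and 1155 lower genes became 806 and 603 without background correction, 963 and 762 with an offset of 50 and no negative controls, and 817 and 595 on deposited values. The cause was not tested. They were 3130 and 2773 with no fold limit, 504 and 347 at 4-fold, and 2147 and 2089 at the 65% limits of the methods. The methods’ t-test, which uses the spread of 4 arrays gene by gene, gave 1173 and 938 before and 159 and 166 after Benjamini-Hochberg adjustment. Leaving out each array in turn gave 1470 to 1556 higher and 1154 to 1246 lower. Median scaling moved the median of all genes to 0.10 from 0.04.

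Replicate numbers did not pair the samples beyond the controls, where number 1 and number 2 name the mimics. Deviations of same-numbered arrays correlated across genes at 0.28 between the control groups and from -0.099 to 0.029 between other groups. With the replicate number as a block, 1473 genes were higher and 1155 lower, and with the 4 control arrays alone and the mimic as a block 1471 and 1157. The 4 control arrays alone with no block did not call CD24 and SERPINB4. A block ended the call of no named gene, and the second of these fits also called SPRR1B.

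Each mean rests on 2 arrays of 1 culture each, line and medium cannot be told apart, and a gene at background has only a bound. Of 73 called genes with several probes, all probes were called the same way for 53, and 1, CALB2, had a probe of the other sign. The rest had at least 1 probe that was not called, among them ARMCX6 (0.26), EPCAM (-0.58), BEX3 (0.61) and JUP (-0.63).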

Other observations

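Families outside the lists, picked after their values had been seen and given as counts only, are set beside the 14.0% of all genes called higher and the 11.0% called lower. HOX genes, which set position along the body axis and keep their pattern in cultured cells, were lower for 7 of 13 tested and higher for 2, and all 4 HOXC genes tested, HOXC13, HOXC9, HOXC8 and HOXC6, were lower. BEX, TCEAL and ARMCX genes, related families of chromosome X, were higher for 10 of 14 and lower for 0, with a median difference of 1.92. Small nucleolar RNA genes, which guide the modification of ribosomal RNA, were lower for 22 of 72 and higher for 1 (median -0.84), and many lie within introns of host genes whose transcripts a probe may also read. Other families counted were collagens at 4 higher and 4 lower of 15, plexins and neuropilins at 3 higher and 3 lower of 8, ephrins and Eph receptors at 1 higher and 3 lower of 10, semaphorins at 5 higher and 1 lower of 13, and ZNF zinc finger genes at 39 higher and 13 lower of 244. The median over all genes was 0.04.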
